A study of Homo sapiens with 21 samples.

Results

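The 10 genes described here encode ligands, latency proteins, receptors and intracellular mediators of transforming growth factor beta (TGF-beta) signalling, together with a gene named for its induction by TGF-beta. They are TGFB1, TGFB2, LTBP1, LTBP2, TGFBR1, TGFBR2, TGFBR3, SMAD3, SMAD7 and TGFBI, taken as the rows of the deposited table with those symbols, 10 of 57820 genes. All 10 passed the filter on low values that left 18040 genes to be tested. They were measured by RNA sequencing in A673, an established Ewing sarcoma cell line that depends on the fusion transcription factor EWS/FLI. Every group carried an RNA interference construct and a pMSCV-hygro vector. Control libraries came from cells with RNAi against luciferase and an empty vector (n = 4, batches 1, 2, 3 and 5). Knockdown libraries came from cells with RNAi against EWS/FLI and an empty vector (n = 5, batches 1 to 5). The 3 rescue groups carried the same EWS/FLI RNAi with full-length type IV EWS/FLI (called wild type here, n = 5, batches 1 to 5), the delta 22 mutant (n = 4, batches 1 to 4) or the mut9 mutant (n = 3, batches 3 to 5). The rescue vector was added after 4 days of selection for the RNAi construct, so each rescue describes cells in which EWS/FLI had first been lowered. The labels give no more about either mutant than its name, and all values rest on 1 cell line. Nothing says that the libraries of a group came from separate cultures, so p-values measure the spread between these libraries, which may be technical.

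TGF-beta ligands are secreted in a latent complex that latent TGF-beta binding proteins tether to the extracellular matrix. Once released, a ligand joins the type II receptor TGFBR2 to the type I receptor TGFBR1, which phosphorylates SMAD2 and SMAD3, and these enter the nucleus with SMAD4 to change transcription. SMAD7, itself a transcriptional target, restrains the receptors. TGFBR2 has long been known as a gene that EWS/FLI represses in Ewing sarcoma, and FLI1, the DNA-binding part of the fusion, recognises the letters GGAA.

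Values are the deposited normalized log2 values, in which a difference of 1 is a doubling of the value on the linear scale. Their form draws low values together, so the folds and linear levels below are those of these values and not of read counts. FLI1, whose reads come from the fusion, the constructs and any intact FLI1 transcript alike, lay at log2 11.56 to 11.69 in control libraries and 9.59 to 9.99 after knockdown. It lay at 10.35 to 10.69 with wild type, 10.99 to 11.51 with delta 22 and 10.10 to 10.39 with mut9. Of 8 Ewing sarcoma marker genes 7 were measured above the filter in these libraries, and CD99, a defining surface marker, was listed at 0 in every library. Of 10 markers of blood, vessel, epithelial, muscle, neural and liver cells 9 were matched by name and 2 passed the filter, with library values from log2 -2.55 to 4.30. The summed linear level of those markers was 28.7 to 31.2 in control, 31.5 to 41.9 in knockdown, 23.7 to 31.6 in wild-type, 33.6 to 40.8 in delta 22 and at most 27.0 in mut9 libraries. The part of these small differences in the results below was not tested. In bulk RNA, fewer cells that express a gene and less RNA per cell cannot be told apart. Library totals are not kept by the deposited values, so the depth behind each value is unknown.

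Promoter windows of 250 bases before the transcription start were read from RefSeq for the 10 genes, which have 26 listed starts. Those of TGFB1, TGFB2, TGFBI and LTBP2 are shown because each has a single listed start and because these genes span a small rise (TGFB1) and large rises after knockdown. TGFBR3 also has a single listed start and is not shown. The windows shown are given in the order TGFB1, TGFB2, TGFBI and LTBP2. They are given 5′ to 3′ along the gene, with coordinates in build GRCh38.p14, which is not the build of the expression table. Capitals mark GGAA or, for the other strand, TTCC.
TGFB1, chr19:41353923-41354172, minus strand: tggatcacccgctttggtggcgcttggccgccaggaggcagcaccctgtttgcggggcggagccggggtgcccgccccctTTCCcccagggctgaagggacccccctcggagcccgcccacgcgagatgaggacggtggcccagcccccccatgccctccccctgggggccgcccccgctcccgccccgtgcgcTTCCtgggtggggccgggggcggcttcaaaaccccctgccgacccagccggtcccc
TGFB2, chr1:218345086-218345335, plus strand: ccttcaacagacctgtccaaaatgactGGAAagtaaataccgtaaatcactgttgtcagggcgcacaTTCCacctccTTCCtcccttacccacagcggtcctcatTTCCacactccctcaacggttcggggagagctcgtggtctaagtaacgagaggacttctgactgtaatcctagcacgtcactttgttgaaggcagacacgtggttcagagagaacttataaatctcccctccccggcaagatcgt
TGFBI, chr5:136028738-136028987, plus strand: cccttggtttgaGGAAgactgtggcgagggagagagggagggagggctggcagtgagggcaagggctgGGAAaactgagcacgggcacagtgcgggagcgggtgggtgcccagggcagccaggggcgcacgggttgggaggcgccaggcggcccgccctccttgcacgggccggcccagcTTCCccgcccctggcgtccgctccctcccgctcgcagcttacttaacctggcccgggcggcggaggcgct
LTBP2, chr14:74612238-74612487, minus strand: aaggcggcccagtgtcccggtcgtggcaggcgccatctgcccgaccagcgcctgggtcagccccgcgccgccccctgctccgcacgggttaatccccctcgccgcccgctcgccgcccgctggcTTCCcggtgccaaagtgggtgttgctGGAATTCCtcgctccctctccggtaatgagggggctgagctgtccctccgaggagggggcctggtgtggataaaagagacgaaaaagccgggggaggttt
The TGFB2 window holds 4 matches to GGAA on either strand, the TGFBI and LTBP2 windows 3 each and the TGFB1 window 2. GGAA was present in 84.6% of the windows of the 10 genes and in 92.7% of all 35116 RefSeq windows of the same length, so a match is common everywhere. Shares of windows weigh genes unequally, since TGFBR1 has 8 and SMAD3 5 of the 26. Each of the 10 genes had GGAA in at least 1 window. The doubled motif GGAAGGAA, which overlaps GGAA, stood in 1 of 26 windows (3.85%, a TGFBR1 start) against 3.06% of all windows. CAGAC, a motif known from SMAD binding, was found in 46.2% against 38.0%, with 2 matches in the TGFB2 window and 0 in those of TGFB1, TGFBI and LTBP2. The windows with CAGAC belonged to 5 of the 10 genes. TGANTCA, the motif of AP-1 factors, was found in 3.85% against 6.57%. These matches describe letters in the windows and are not binding sites.

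The first comparison asks what lowering EWS/FLI does to these genes. All 10 rose after knockdown, with a median difference of log2 2.92 against -0.007 over all genes tested. Called means an adjusted p under 0.05 (limma, Benjamini-Hochberg over 18040 genes, 2-sided). Of all genes 35.5% were called higher in this comparison. The knockdown and control libraries did not overlap for any of the 10, against 30.8% of all genes higher without overlap. Of the 10, 9 rose at least 2-fold. Within batches, all 40 differences (10 genes in 4 batches) were positive, which follows from the lack of overlap.

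Putting wild-type EWS/FLI back lowered all 10 genes, by a median of log2 -2.18, against 0.006 over all genes. Of all genes 32.3% were called lower here. The wild-type libraries all lay below the knockdown libraries for 9 of 10 genes, the exception being TGFB1, against 22.6% of all genes. All 50 within-batch differences were negative, which for the 9 genes without overlap follows from that. Every comparison with a rescue uses the same 5 knockdown libraries, so these comparisons are not independent of each other or of knockdown minus control.

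With delta 22, 0 of 10 genes were called in either direction (limma), and the median difference was log2 -0.01. Of all genes 4.50% were called, so a count of 0 says little about these 10. At an unadjusted p under 0.05 there was 1, TGFBR3, and with batch as a block 1 was called, again TGFBR3. Of 40 within-batch differences 22 were positive and 18 negative. Mut9 lowered 8 of 10 genes by the same test, with a median over the 10 of log2 -1.67. Of all genes 25.5% were called lower with mut9. The mut9 libraries lay below all knockdown libraries for the same 8 of the 10 genes, against 24.6% of all genes. TGFB1 and TGFBR3 were the 2 that did not pass. Of 30 within-batch differences 28 were negative, as those of the 8 genes without overlap had to be. The 2 positive ones were those of TGFB1.

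**Figure D1:**
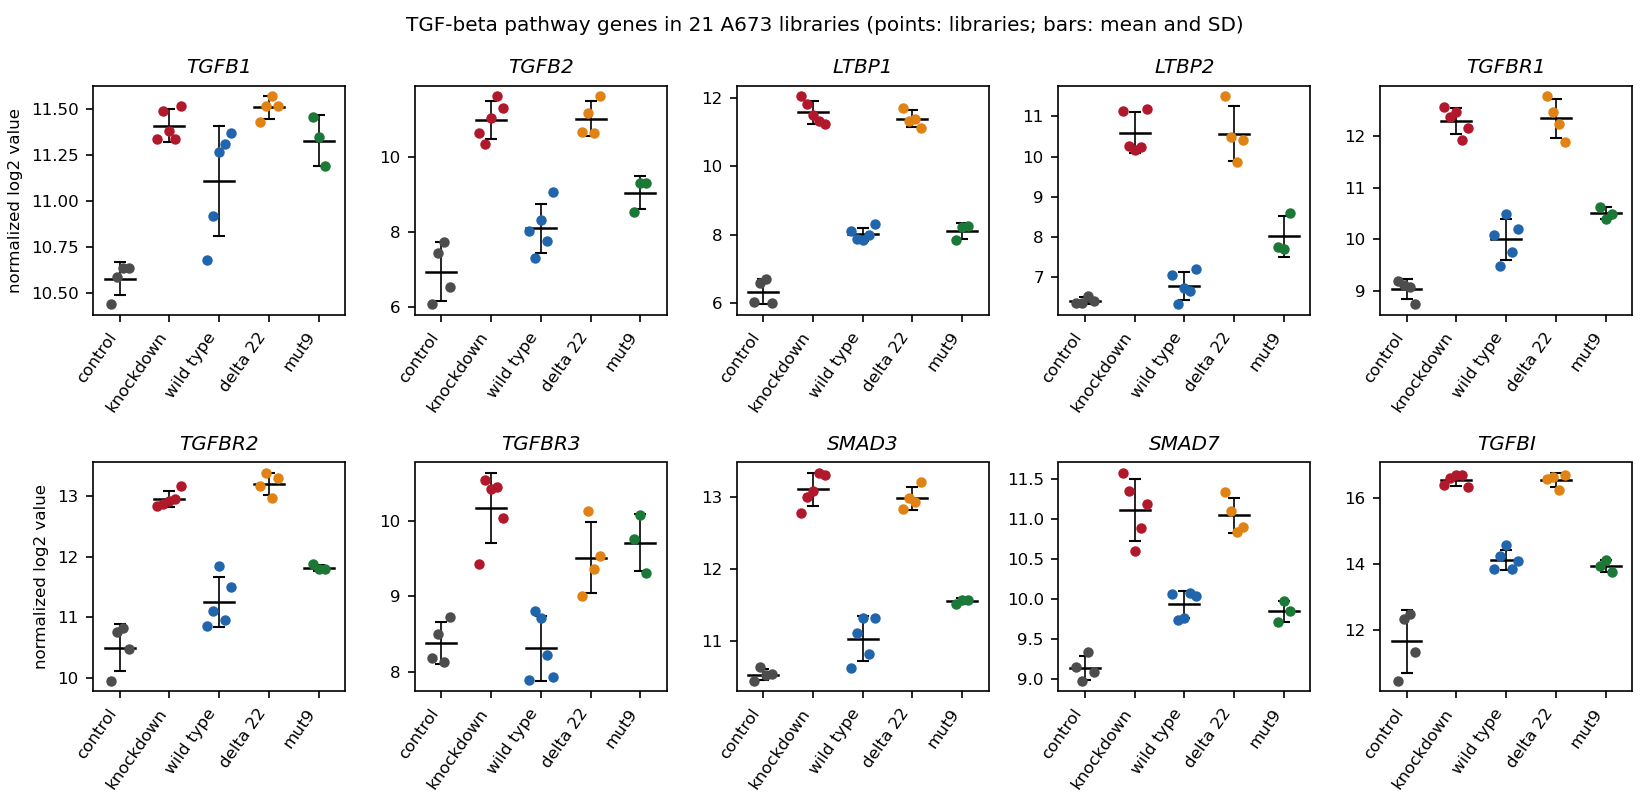
Normalized log2 value (y axis, scaled per gene) of the 10 genes in 5 groups (x axis), where each point is a library, in order of batch from left to right, and the lines give the mean and SD of the group. Knockdown and delta 22 libraries lie together above all others for 8 genes, those of TGFB1 overlap mut9 and wild-type libraries, mut9 libraries of TGFBR3 lie among the delta 22 libraries, and the wild-type libraries of TGFB1 spread from 10.68 to 11.37.

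Differences are given below as log2 ± standard error of the fit, n is 4, 5, 5, 4 and 3 for control, knockdown, wild type, delta 22 and mut9, and adjusted p is the limma value. The ligand genes differed in how far they moved. TGFB2, which encodes the second of the 3 TGF-beta ligands, had control values of log2 6.07, 7.45, 7.74 and 6.53 in batches 1, 2, 3 and 5. Its knockdown values in batches 1 to 5 were 10.65, 10.35, 11.05, 11.62 and 11.32. Every knockdown library was above every control library. TGFB2 rose by log2 4.05 ± 0.36 (16.6-fold, adjusted p = 6.77e-09). Values with wild type were 8.02, 7.32, 8.33, 7.76 and 9.07, and with mut9 8.54 in batch 3 and 9.32 in batch 5, with batch 4 between them. Both rescues lay below all knockdown libraries, and the wild-type library of batch 5 overlapped the mut9 range. TGFB2 fell with wild type (log2 -2.89 ± 0.34, adjusted p = 4.99e-07) and with mut9 (log2 -1.94 ± 0.39, adjusted p = 4.41e-04). With delta 22 its values of 10.66, 11.19, 10.65 and 11.62 lay within the range of the knockdown libraries (difference log2 0.04, 95% interval -0.72 to 0.79).

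TGFB1, the ligand gene most widely expressed in tissues, moved least of the 10 after knockdown. Control values were log2 10.44, 10.59, 10.64 and 10.64, and knockdown values 11.34, 11.49, 11.38, 11.34 and 11.52. The groups were narrow and did not overlap, so that a difference of log2 0.84 ± 0.11 (1.78-fold) passed the test (adjusted p = 1.17e-06). The wild-type libraries read 10.68, 10.92, 11.27, 11.31 and 11.37 in batches 1 to 5. Those of batches 1 to 4 lay below every knockdown library, furthest in batches 1 and 2, and that of batch 5 lay within the knockdown range. The fall with wild type was log2 -0.30 ± 0.10 (adjusted p = 0.0149). It did not pass with batches 3 to 5 alone, a fit chosen after seeing the data (log2 -0.095, adjusted p = 0.354), with quantile scaling (log2 -0.185, adjusted p = 0.108) or in a fit of the compared groups alone (adjusted p = 0.0566). Mut9 values, which exist for batches 3 to 5, were 11.46, 11.35 and 11.19 and overlapped the knockdown range (log2 -0.08 ± 0.12, adjusted p = 0.597). Delta 22 values were 11.43, 11.52, 11.57 and 11.52, at or above most knockdown values (difference log2 0.10, 95% interval -0.13 to 0.32). The annotated span of TGFB1 overlaps HNRNPUL1, CCDC97 and TMEM91 on the opposite strand. Whether the counting used strand is not given in the sources used here, so reads of TGFB1 and of these genes may be mixed. Over the 21 libraries HNRNPUL1 lay at log2 13.52 to 14.04, CCDC97 at 10.36 to 10.91 and TMEM91 at 4.88 to 7.69.

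Scaled to the length of its annotated exons (GENCODE 29), the linear level per kilobase placed TGFB1 above TGFB2 in every group. In control libraries the level per kilobase was 472 for TGFB1 and 24.0 for TGFB2, and after knockdown 843 and 396. The distance between the ligands was thus narrower after knockdown. With wild type the levels per kilobase were 682 and 53.4, with mut9 796 and 103, and with delta 22 900 and 406.

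The latency genes moved more than most of the 10. LTBP1 encodes a binding protein that covalently holds latent TGF-beta, and its control libraries lay at log2 6.01 to 6.72. Knockdown libraries lay at 11.23 to 12.05, a rise of log2 5.26 ± 0.18 (38.3-fold, adjusted p = 2.3e-14), the largest of the 10. LTBP1 fell to 7.84 to 8.31 with wild type (log2 -3.57 ± 0.17, adjusted p = 4.96e-12) and to 7.85 to 8.25 with mut9 (log2 -3.48 ± 0.20, adjusted p = 1.55e-10). The ranges of these rescues coincided almost wholly, and both lay above control. Delta 22 libraries lay at 11.13 to 11.72, and their difference from knockdown was negative in 4 of 4 batches (-0.51 to -0.14) but did not pass (log2 -0.21 ± 0.18, adjusted p = 0.585).

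LTBP2 encodes a matrix protein of the same family that associates with elastic fibres and does not hold latent TGF-beta. Its control values were log2 6.35, 6.35, 6.54 and 6.40, and its knockdown values 11.14, 10.26, 10.17, 10.25 and 11.18. All knockdown libraries stood far above control, with batches 1 and 5 the highest (log2 4.19 ± 0.29, 18.3-fold, adjusted p = 1.58e-10). Wild-type values were 7.05, 6.32, 6.73, 6.65 and 7.20, and mut9 values 7.74, 7.71 and 8.60. Wild-type libraries reached the control range, while every mut9 library lay above every wild-type library. LTBP2 fell with wild type (log2 -3.81 ± 0.27, adjusted p = 5.8e-10) and with mut9 (log2 -2.58 ± 0.31, adjusted p = 1.58e-06). Delta 22 values of 11.50, 10.50, 9.86 and 10.42 spread around the knockdown values (difference log2 -0.03, 95% interval -0.64 to 0.57).

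Both signalling receptor genes rose after knockdown. TGFBR1, the type I receptor kinase, lay at log2 8.73 to 9.19 in control and 11.93 to 12.58 in knockdown libraries. The rise was log2 3.28 ± 0.19 (9.70-fold, adjusted p = 1.41e-11), and within batches it ran from 3.27 to 3.43, close to equal in all 4. TGFBR1 fell to 9.47 to 10.50 with wild type (log2 -2.31 ± 0.18, adjusted p = 1.8e-09) and to 10.39 to 10.63 with mut9 (log2 -1.80 ± 0.21, adjusted p = 7.92e-07). With delta 22 it lay at 11.89 to 12.78 (difference log2 0.04, 95% interval -0.35 to 0.44).

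TGFBR2, the type II receptor that binds the ligand first, had control values of log2 9.95, 10.75, 10.82 and 10.47. Its knockdown values were 12.84, 12.87, 12.92, 12.95 and 13.16. The knockdown libraries were tightly grouped and the groups stood apart, by log2 2.45 ± 0.18 (5.46-fold, adjusted p = 3.34e-10). Wild-type values were 10.86, 11.10, 11.85, 10.95 and 11.50, and mut9 values 11.88, 11.80 and 11.79. The wild-type library of batch 3 was the highest of its group and lay within the mut9 range. It was also the highest wild-type library for TGFBR1 (10.50), TGFBI (14.57) and SMAD3 (11.32, beside 11.31 in batch 5). Without it, all 10 genes were still called lower with wild type than in knockdown, TGFBR2 by log2 -1.845 in place of -1.70 (adjusted p = 5.22e-09). TGFBR2 also fell with mut9 (log2 -1.13 ± 0.19, adjusted p = 8.07e-05). Delta 22 values of 13.17, 13.38, 12.96 and 13.30 were higher than knockdown in 4 of 4 batches (0.04 to 0.51), and the difference did not pass (log2 0.25 ± 0.18, adjusted p = 0.475).

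TGFBR3 encodes betaglycan, a co-receptor without kinase activity that presents ligand, TGFB2 above all, to TGFBR2. It read log2 8.18, 8.50, 8.13 and 8.73 in control and 9.42, 10.53, 10.42, 10.44 and 10.04 in knockdown libraries. The groups did not overlap, and the rise was log2 1.79 ± 0.26 (3.45-fold, adjusted p = 4.11e-06). Wild-type values of 7.89, 8.80, 8.71, 8.23 and 7.93 covered the control range, a fall of log2 -1.86 ± 0.24 from knockdown (adjusted p = 1.86e-06). The mut9 values of 9.76, 10.07 and 9.31 overlapped the knockdown range. They were lower than knockdown in 3 of 3 batches (-0.72 to -0.37), and the difference did not pass (log2 -0.46 ± 0.28, 95% interval -1.04 to 0.13, adjusted p = 0.19). The delta 22 values were 9.00, 10.13, 9.36 and 9.53. These too were lower than knockdown in 4 of 4 batches (-1.06 to -0.40), a difference of log2 -0.66 ± 0.26 that did not pass (adjusted p = 0.154) but passed with batch as a block (log2 -0.70, adjusted p = 0.0322).

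Among the intracellular mediators, SMAD3, the receptor-regulated SMAD that binds DNA, gave narrow groups. Control libraries read log2 10.44, 10.64, 10.52 and 10.54, and knockdown libraries 12.78, 12.99, 13.08, 13.33 and 13.30. These groups stood apart by log2 2.56 ± 0.13 (5.90-fold, adjusted p = 2.45e-12). Wild-type values were 10.62, 11.10, 11.32, 10.82 and 11.31, and mut9 values 11.51, 11.57 and 11.57. Each mut9 library was above each wild-type library, and both groups were far below knockdown. SMAD3 fell with wild type (log2 -2.06 ± 0.12, adjusted p = 6.87e-11) and with mut9 (log2 -1.55 ± 0.14, adjusted p = 4.93e-08). Delta 22 values of 12.83, 12.98, 12.92 and 13.21 lay in the knockdown range (difference log2 -0.11, 95% interval -0.38 to 0.16).

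SMAD7, the inhibitory SMAD, lay at log2 8.97 to 9.33 in control and 10.59 to 11.57 in knockdown libraries, a rise of log2 1.98 ± 0.15 (3.95-fold, adjusted p = 9.31e-10). It fell to 9.73 to 10.07 with wild type (log2 -1.18 ± 0.15, adjusted p = 8.14e-07) and to 9.71 to 9.97 with mut9 (log2 -1.27 ± 0.17, adjusted p = 4.25e-06). Both rescue ranges lay between control and knockdown without touching either. Delta 22 libraries lay at 10.83 to 11.33 (difference log2 -0.07, 95% interval -0.39 to 0.25).

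TGFBI encodes a secreted matrix protein, bound by integrins, that was first found as a gene induced by TGF-beta. Control values were log2 10.47, 12.35, 12.50 and 11.36, and knockdown values 16.38, 16.61, 16.70, 16.70 and 16.33. The control libraries were spread widely while the knockdown libraries were close together. TGFBI rose by log2 4.87 ± 0.28 (29.3-fold, adjusted p = 1.4e-11). Wild-type values of 13.85, 14.26, 14.57, 13.87 and 14.10 and mut9 values of 13.94, 14.13 and 13.76 shared one range. TGFBI fell with wild type (log2 -2.41 ± 0.26, adjusted p = 1.93e-07) and with mut9 (log2 -2.60 ± 0.31, adjusted p = 1.11e-06). With delta 22 the values were 16.59, 16.65, 16.24 and 16.71 (difference log2 0.01, 95% interval -0.58 to 0.59). Per kilobase of exon, its linear level after knockdown was 12200, the highest of the 10 genes there, and in control 417, below TGFB1.

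**Figure D2:**
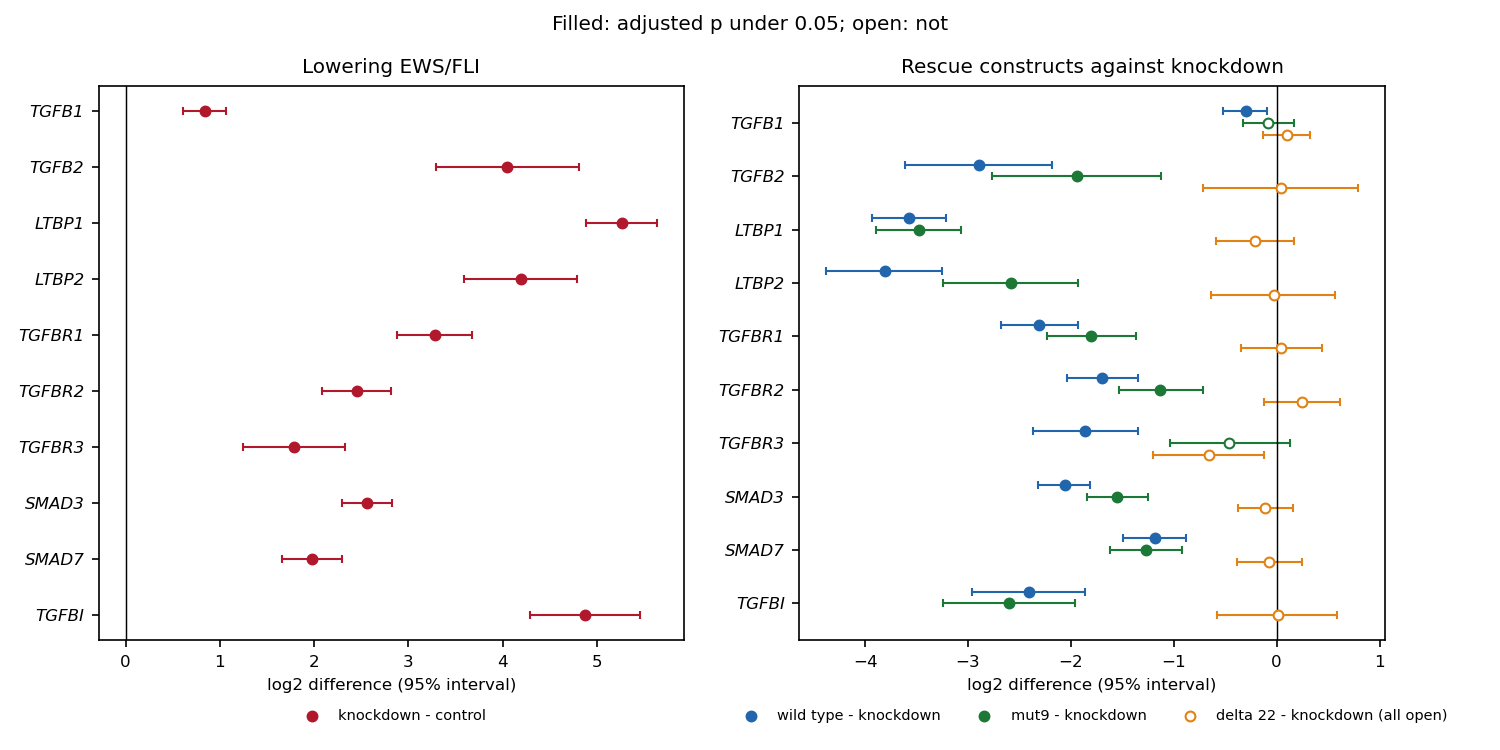
Log2 difference (x axis) with its 95% interval for each of the 10 genes (y axis), for knockdown minus control on the left and for each rescue minus knockdown on the right, where filled points have an adjusted p under 0.05. All 10 points are right of 0 on the left, wild type is left of 0 for all 10 on the right, mut9 is open for TGFB1 and TGFBR3, and delta 22 is open for all 10.

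Wild type against delta 22 tests the difference between the rescues directly. All 10 genes were higher with delta 22 by this test, where 31.7% of all genes were called higher, with a median over the 10 of log2 2.15. The delta 22 libraries lay above all wild-type libraries for each of the 10, against 24.6% of all genes. Differences ran from log2 0.40 ± 0.11 for TGFB1 (adjusted p = 0.00366) to 3.78 ± 0.29 for LTBP2 (adjusted p = 1.5e-09). The TGFB1 call did not hold with batches 3 to 5 alone (log2 0.225, adjusted p = 0.0606). FLI1 values were higher in delta 22 than in wild-type libraries (10.99 to 11.51 against 10.35 to 10.69), and the part of that difference here was not tested.

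Mut9 against wild type asks whether the mutant lowered these genes as far. TGFBR3, LTBP2, SMAD3 and TGFBR2 were higher with mut9, and the other 6 did not pass. Of all genes 11.2% were called higher in this comparison. The groups stood apart for 3 of the 10, against 13.2% of all genes higher without overlap. TGFBR3 differed most, by log2 1.40 ± 0.28 (2.64-fold, adjusted p = 0.00216), and was higher with mut9 in 3 of 3 batches (1.05 to 1.84). It was called in every alternative run, with adjusted p from 0.000137 to 0.0212. LTBP2 was higher by log2 1.23 ± 0.31 (2.34-fold, adjusted p = 0.0103), also in 3 of 3 batches (1.01 to 1.40), but did not pass without mut9 replicate 5 (log2 0.936, adjusted p = 0.0722).

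SMAD3 was higher with mut9 by log2 0.52 ± 0.14 (adjusted p = 0.0154) and TGFBR2 by log2 0.57 ± 0.19 (adjusted p = 0.0443). SMAD3 did not pass without mut9 replicate 4 (adjusted p = 0.0583), in the compared groups alone (adjusted p = 0.0563) or in batches 3 to 5 (log2 0.402, adjusted p = 0.0708). TGFBR2 did not pass with batch as a block (log2 0.495, adjusted p = 0.0595), with no filter (adjusted p = 0.0763), in the compared groups alone (adjusted p = 0.0922) or in batches 3 to 5 (log2 0.390, adjusted p = 0.212). It was also lost without any 1 of the 3 mut9 libraries or without wild-type replicate 1, 2 or 4 (adjusted p from 0.0837 to 0.141). TGFBR1 was higher by log2 0.51 ± 0.21 (adjusted p = 0.0914) and passed with batch as a block (log2 0.583, adjusted p = 0.021), with array weights (adjusted p = 0.0201) and without wild-type replicate 3 (log2 0.634, adjusted p = 0.0292). TGFB2 was higher by log2 0.95 ± 0.39 (adjusted p = 0.0999) and passed with array weights (adjusted p = 0.0373) and without wild-type replicate 5 (log2 1.193, adjusted p = 0.0367).

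For LTBP1, SMAD7 and TGFBI the intervals of mut9 minus wild type were centred near 0. They ran from log2 -0.32 to 0.50 for LTBP1, from -0.44 to 0.26 for SMAD7 and from -0.83 to 0.45 for TGFBI. TGFB1 had an interval of -0.03 to 0.47 (log2 0.22, adjusted p = 0.21). Between mut9 and wild type, TGFBR3 alone was thus called in every run. The calls of LTBP2, SMAD3, TGFBR2, TGFBR1 and TGFB2 depended on the fit or on single libraries. LTBP1, SMAD7, TGFBI and TGFB1 were not called in any run. FLI1 lay at 10.10 to 10.39 with mut9 and 10.35 to 10.69 with wild type, and the part of that difference in these results was not tested.

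Wild type against control asks how near the rescue came to the starting state. Of the 10 genes 8 remained higher than control, where 21.3% of all genes were called higher, and the groups stood apart for 6 of the 10, against 16.4% of all genes. The median over the 10 was log2 0.78, against 0.033 over all genes. TGFBI remained highest, by log2 2.46 ± 0.28 (5.52-fold, adjusted p = 1.97e-06), followed by LTBP1 with log2 1.69 ± 0.18 (3.23-fold, adjusted p = 9.49e-07). TGFB2 was higher by log2 1.16 ± 0.36 (adjusted p = 0.0159) and TGFBR1 by log2 0.97 ± 0.19 (adjusted p = 4.7e-04). SMAD7, TGFBR2, TGFB1 and SMAD3 were higher by log2 0.80, 0.75, 0.53 and 0.50 (adjusted p = 4.43e-04, 0.00228, 7.85e-04 and 0.00492). The TGFB2 libraries overlapped (control up to 7.74, wild type from 7.32), and its call did not hold without control replicate 1 (adjusted p = 0.0752), control replicate 5 (adjusted p = 0.0551) or wild-type replicate 5 (adjusted p = 0.0508), with array weights (log2 0.677, adjusted p = 0.0938) or in batches 3 to 5 (adjusted p = 0.0561).

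TGFBR3 and LTBP2 were the members without a called difference from control. For TGFBR3 the difference was log2 -0.07 with a 95% interval of -0.61 to 0.47, and for LTBP2 log2 0.38 with an interval of -0.22 to 0.98. They were also the pair with the largest differences of mut9 from wild type, a comparison that uses the same wild-type libraries. FLI1 itself was lower with wild type than in control libraries (10.35 to 10.69 against 11.56 to 11.69), and the part of that in these results was not tested.

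**Figure D3:**
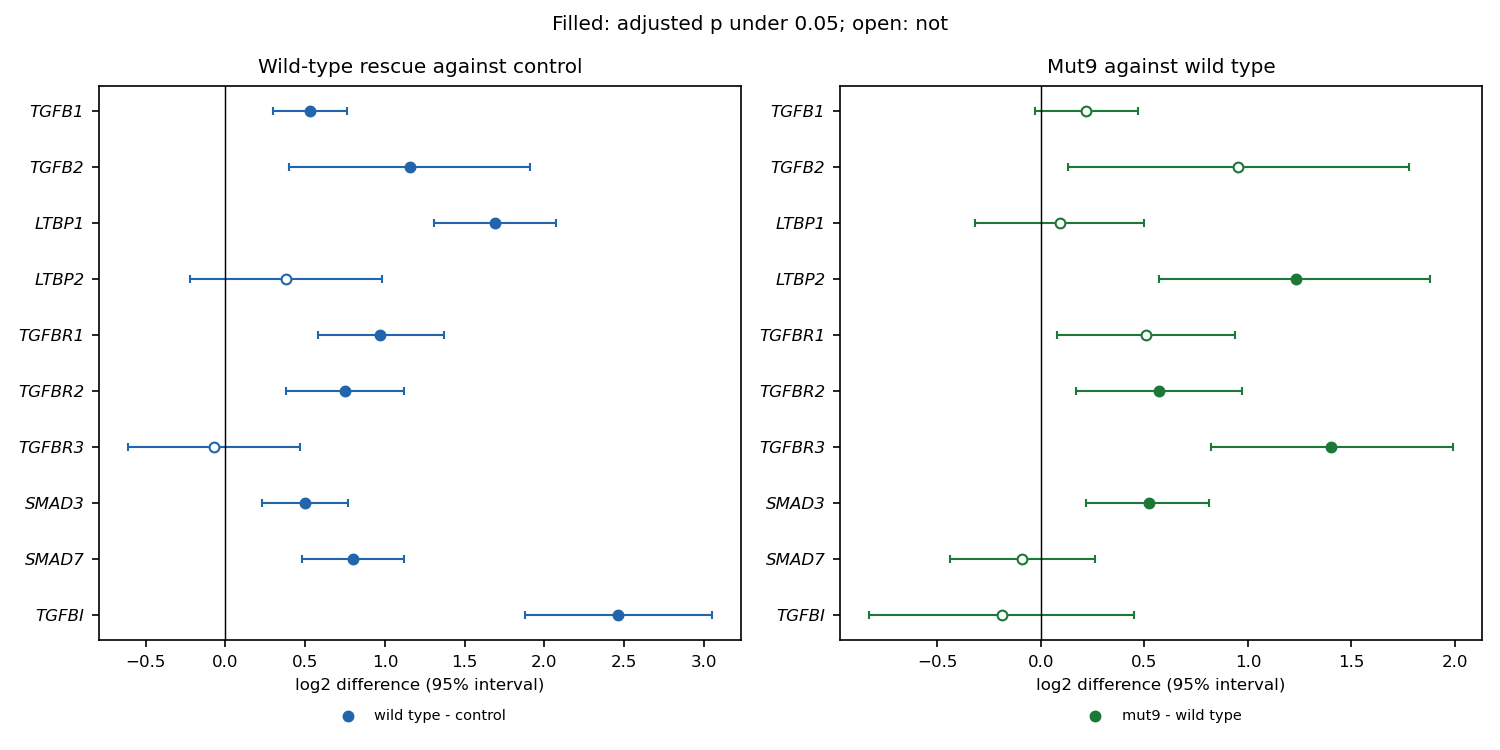
Log2 difference (x axis) with its 95% interval for the 10 genes (y axis), for wild type minus control on the left and mut9 minus wild type on the right, where filled points have an adjusted p under 0.05. TGFBI lies furthest right on the left side (2.46), TGFBR3 and LTBP2 are open there, and the same 2 genes lie furthest right on the right side (1.40 and 1.23).

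Ordered by group mean, knockdown and delta 22 were the 2 highest groups for 9 genes, and neighbouring knockdown and delta 22 means did not differ beyond their spread. Mut9 and wild type came next and control last for these 9, though for LTBP2 the step from wild type to control was not called (log2 0.38). Mut9 was above wild type for 7 of the 9, with a called difference for LTBP2, SMAD3 and TGFBR2 alone. Within the batches that hold both groups, the sign varied for TGFB1 (-0.19 to 0.19) and LTBP1 (-0.06 to 0.25). Wild type was above mut9, without a called difference, for TGFBI and SMAD7. TGFB1 had no called difference between any neighbours from delta 22 through knockdown and mut9 to wild type, and then a called step to control (log2 0.53). TGFBR3 had another order. Knockdown, mut9 and delta 22 followed each other without a called difference, then came a step from delta 22 to control (log2 1.12, adjusted p = 0.0011), and control and wild type did not differ beyond their spread.

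Other genes of the pathway were taken from 4 lists written from general knowledge, 62 genes in all, of which 61 passed the filter (CDKN2B did not). The lists were written with earlier results of these data known, so counts over them are not independent of these data. After knockdown 45 were higher and 9 lower of 61, with a median of log2 1.82. Of all genes 35.5% were higher and 34.0% lower. With wild type 10 were higher and 40 lower than in knockdown, with mut9 10 and 35, and with delta 22 2 and 1. The shares of all genes called higher and lower were 29.6% and 32.3% with wild type, 23.0% and 25.5% with mut9 and 2.24% and 2.26% with delta 22, so the delta 22 count is near that of all genes. With quantile scaling the counts after knockdown were 41 and 13.

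Of 17 ligands, antagonists and genes of latency and activation, 15 rose and 1 fell after knockdown (median log2 2.21). Over all genes 35.5% were called higher there and 34.0% lower. The largest rises were in THBS1 (log2 6.82 ± 0.41), which encodes the activator thrombospondin-1, FST (5.98 ± 0.41), the activin antagonist follistatin, INHBA (5.32 ± 0.40), the activin A subunit, and LRRC32 (4.70 ± 0.18), which anchors latent TGF-beta at the cell surface. GDF11, a ligand of the activin branch, fell (log2 -0.99 ± 0.10). TGFB3, the third TGF-beta ligand gene, lay at log2 8.29 to 8.67 in control and 8.98 to 9.70 in knockdown libraries and rose (log2 0.88 ± 0.20, adjusted p = 5.08e-04). With mut9 TGFB3 lay at 9.39 to 9.78, and its difference from knockdown did not pass (log2 0.26 ± 0.21, adjusted p = 0.324). With wild type it lay at 8.26 to 9.25 and fell (log2 -0.64 ± 0.18, adjusted p = 0.00536). Of the 17, 14 fell and 1 rose with wild type, and 13 fell and 2 rose with mut9, where 32.3% and 25.5% of all genes were called lower and 29.6% and 23.0% higher. LRRC32 fell with mut9 (log2 -0.86 ± 0.20) and with wild type (log2 -2.88 ± 0.17), and mut9 was above wild type by log2 2.02 ± 0.20 (adjusted p = 3.35e-06). It was 1 of the 2 list genes called higher with delta 22 than in knockdown (log2 0.90 ± 0.18, adjusted p = 0.00768).

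The other receptors did not follow TGFBR1, TGFBR2 and TGFBR3 as a group. Of 6, 2 rose and 3 fell after knockdown (median log2 -0.12), where 35.5% of all genes were called higher and 34.0% lower. Counts this near those shares say little about these receptors as a group. ENG, the co-receptor endoglin, and ACVRL1, a type I receptor known from endothelium, rose (log2 1.82 ± 0.16 and 2.07 ± 0.43). The activin receptor genes ACVR2B, ACVR2A and ACVR1B fell (log2 -1.61 ± 0.11, -0.94 ± 0.09 and -0.34 ± 0.11). These 3 rose with wild type (log2 0.86 ± 0.11, 0.67 ± 0.09 and 0.98 ± 0.10) and with mut9 (0.60 ± 0.12, 0.59 ± 0.10 and 0.87 ± 0.12), and ACVRL1 rose further with both rescues (1.37 ± 0.40 with wild type and 1.58 ± 0.47 with mut9). ACVR1B is named after its values were seen.

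SMAD genes and regulators were mixed after knockdown, with 9 higher, 5 lower and 5 not called of 19 (median log2 0.04). Calls in both directions are common everywhere, since 35.5% of all genes were called higher and 34.0% lower. SMAD2 and SMAD4, the partners of SMAD3, were not called after knockdown. SMAD2 lay at log2 12.78 to 12.92 in control and 12.72 to 12.97 in knockdown libraries (difference -0.04 ± 0.05, adjusted p = 0.491), and SMAD4 at 12.41 to 12.59 and 12.31 to 12.57 (0.00 ± 0.05, adjusted p = 0.944). With quantile scaling, which moved the median of all genes to log2 -0.20, SMAD2 was called lower (log2 -0.13, adjusted p = 0.0428). SMAD6, the other inhibitory SMAD, moved against SMAD7. It fell after knockdown (log2 -0.65 ± 0.17, adjusted p = 0.0021) and rose with wild type (0.65 ± 0.16) and mut9 (0.56 ± 0.19). SMAD9 and SMAD1, which serve the bone morphogenetic protein branch, fell after knockdown as well (log2 -1.72 ± 0.15 and -0.28 ± 0.10), as did the corepressor TGIF2 (-0.88 ± 0.08) and STRAP (-0.53 ± 0.09), a partner of SMAD7. The rises included PMEPA1 (2.71 ± 0.20), a feedback inhibitor, and the ubiquitin ligases SMURF2 (1.59 ± 0.09) and NEDD4L (1.10 ± 0.24).

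Of 19 tested genes known to respond to TGF-beta, all 19 rose after knockdown (median log2 2.89) and 0 fell. The shares over all genes in that comparison were 35.5% called higher and 34.0% lower. Many of them respond to other signals too, and the list was written with earlier results of these data known. Large rises were seen in the cytokine gene IL11 (log2 6.78 ± 0.43), the protease gene ADAM12 (5.64 ± 0.26) and TGM2 (4.95 ± 0.32), a transglutaminase. The smallest was in ACTA2, smooth muscle actin (0.69 ± 0.30, adjusted p = 0.0443), which did not pass with quantile scaling (adjusted p = 0.099) or trimmed mean scaling (adjusted p = 0.0533). With wild type 18 of 19 fell, and with mut9 14 fell and 1, ACTA2, rose (1.12 ± 0.32, adjusted p = 0.00712). Of all genes 32.3% were called lower with wild type and 25.5% with mut9. With delta 22 0 of 19 were called (limma), where 4.50% of all genes were, so a count of 0 says little about these 19. At an unadjusted p under 0.05 there were 2, and with batch as a block 1 was called. ACTA2 is named here after its values were seen.

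**Figure D4:**
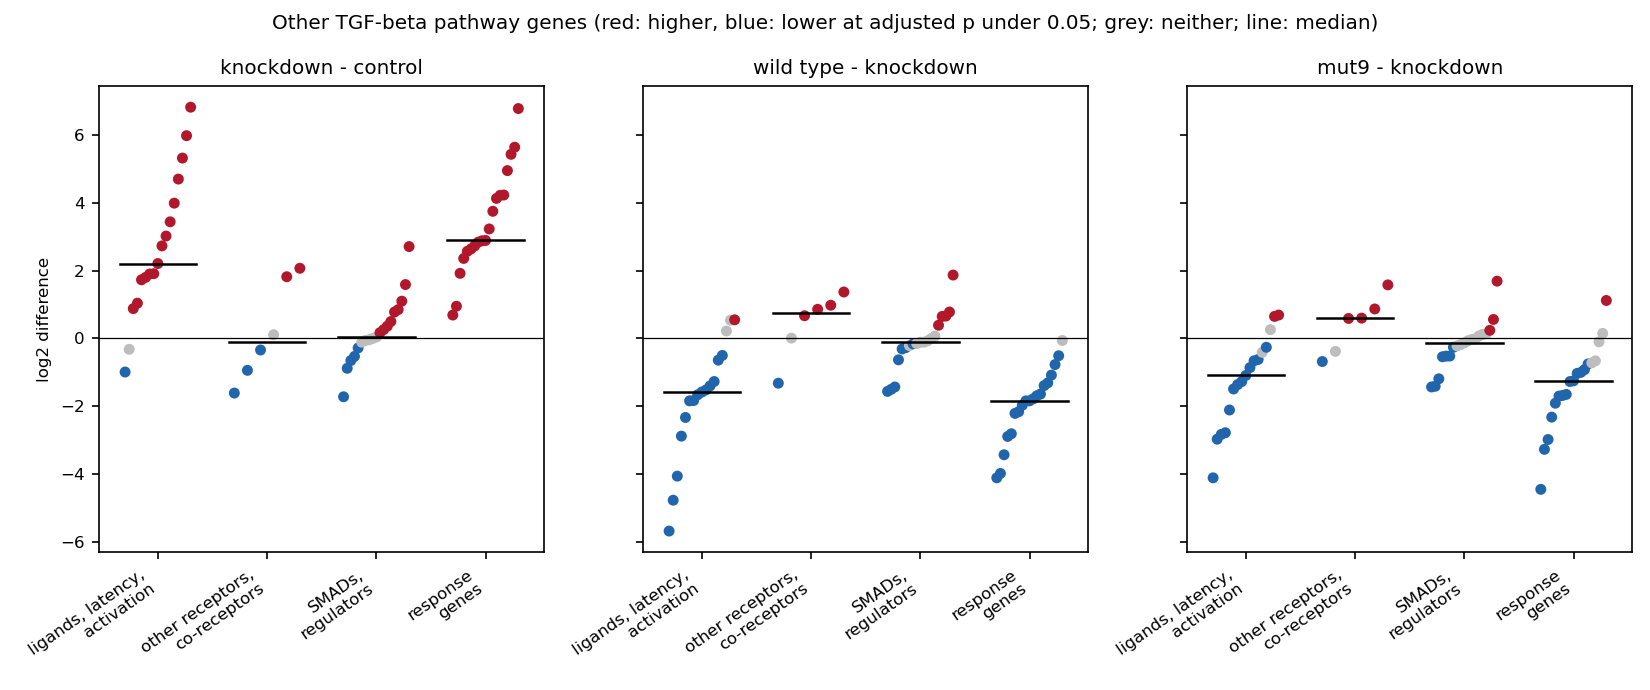
Log2 difference (y axis) of 61 other pathway genes in 4 lists (x axis) for knockdown minus control, wild type minus knockdown and mut9 minus knockdown, where each point is a gene, coloured by its call, and the line is the list's median. The response genes are all above 0 in the first panel, while receptors and SMAD genes lie on both sides.

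The genes whose pattern over the 21 libraries was most like each member were found by the root-mean-square difference of centred log2 values among 11841 genes, which share libraries and scaling. For TGFB1 they were NBR1 and TBCEL (0.118 and 0.12), for TGFB2 MYOF and TPM1 (0.369 and 0.375) and for LTBP1 KCNMA1 (0.375). For LTBP2 they were NR2F1-AS1 and ARHGAP44 (0.425 and 0.48), for TGFBR1 NUAK1 and SLC35E4 (0.205 and 0.225) and for TGFBR2 EPS8 and PXDC1 (0.184 and 0.186). TGFBR3 was most like MAP3K8 and TAPBPL (0.329 and 0.377), SMAD3 like RAI14 and FRMD6 (0.22 and 0.224), SMAD7 like PEA15 and DNM3 (0.212 and 0.221) and TGFBI like ADORA1 and PLAU (0.399 and 0.425). Within the 10 genes TGFBR2 and SMAD3 were closest to each other (0.25). The small value for TGFB1 goes with its small range, since its own spread about its mean was 0.36, against a median distance of 0.47 for the genes searched.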

How the data were processed

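RNA of A673 cells was sequenced in 21 libraries made with ScriptSeq, per the labels' protocols. The submitters' processing notes name bcl2fastq, STAR 2.5.2b, HTSeq, DESeq2 and hg19. The deposited table holds log2 normalized values made by the authors. Their form (-4.09 to 20.22, with 17358 genes at 0 throughout) is that of regularized logarithms, read from the values. No pseudocount was added. Symbols came from the annotation table given with the data (51996 of 57820 IDs matched). Genes with at least 3 libraries at 10 or more on the linear scale were tested (18040).

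The 5 group means were estimated in one limma-trend fit of the 21 libraries (limma 3.58.1, R 4.3.3), with Benjamini-Hochberg adjustment over the genes tested and calls under 0.05. The fit was also run on simulated data with independent noise, no batch effect and changes in few genes. That run cannot speak to batches or to the many changes seen here. Neighbours in the order of levels are from the same fit. Motifs were searched on both strands.

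The members, lists and tests were chosen with earlier results of these data known. Named genes are the 10 members, FLI1, TGFB3, SMAD2, SMAD4, SMAD6, per list the 4 called genes with the largest change after knockdown and those called against their list's majority, and 2 genes most like each member; some genes that this rule names are not reported here.

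Replicate numbers are the labelled batches and pair the libraries. The mean correlation of deviations from group means was 0.20 in 34 same-batch pairs from different groups (above 0.1 in 24 of them) and -0.05 in the 141 remaining pairs. Alternatives were no filter, a mean of at least 100, quantile and trimmed mean scaling, a batch block, array weights, the compared groups alone, leaving out single libraries and, added after seeing the data, batches 3 to 5 alone.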

Additional observations from a re-analysis of the deposited data

How the results depend on the processing

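Over 70 values (10 genes in 7 comparisons) and 1180 alternative values, 1122 kept their direction and their side of the threshold, 23 lost the call, 6 gained it and 29 changed sign, none of these being called. For 54 of the 70, nothing changed under any alternative run. No filter, a mean of at least 100 and trimmed mean scaling changed 1, 0 and 0 of 70 values. The replicate block changed calls in TGFBR3 with delta 22 (log2 -0.700) and in TGFBR1 (0.583) and TGFBR2 (0.495) for mut9 minus wild type, and no other call. The cause of these changes was not tested.

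Of the 10 genes, the number called with delta 22 was 1 with the replicate block. For mut9 minus wild type it was 2 in the compared groups alone and in batches 3 to 5, and 2 to 5 without single libraries. Over all genes, delta 22 minus knockdown gave 811 calls, 1292 with the replicate block, 262 in the compared groups alone, 15 in batches 3 to 5 and 383 to 855 without single libraries. Wild type minus control gave 7135, and 4588 in batches 3 to 5. Mut9 minus wild type gave 3390, 5234 with array weights, 1745 in batches 3 to 5 and 1715 to 3570 without single libraries. Pathway list genes called with delta 22 were 3, 8 with the replicate block, 0 in batches 3 to 5 and 1 to 4 without single libraries.

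Signs changed for differences of delta 22 from knockdown. In batches 3 to 5 TGFB2 was -0.188, TGFBI -0.098 and TGFBR1 -0.126. TGFBI was -0.092 with quantile scaling, -0.039 with the replicate block and -0.013 with array weights. SMAD7 was 0.010 with array weights, and LTBP2 0.070, or 0.064 with the replicate block. Without single libraries the ranges were -0.161 to 0.191 for TGFB2, -0.049 to 0.108 for TGFBI, -0.102 to 0.197 for TGFBR1, -0.201 to 0.044 for SMAD7 and -0.344 to 0.201 for LTBP2. LTBP1 for mut9 minus wild type was -0.073 with quantile scaling, and TGFBR3 for wild type minus control ran from -0.194 to 0.043 without single libraries.

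Quantile scaling moved the median of all genes after knockdown to log2 -0.20 and with wild type to 0.12, and the share of calls that were higher from 51.1% to 38.0% and from 47.8% to 59.5%. For wild type minus control the share went from 53.7% to 42.7%, for mut9 minus wild type from 59.5% to 43.9% and for delta 22 minus wild type from 51.9% to 41.9%. Depth is unknown, low values such as those of LTBP1 and LTBP2 in control are drawn together in values of this form, and mut9 has 3 libraries, none from batches 1 and 2.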

Other observations

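GDF15, a distant relative of the TGF-beta ligands known from cellular stress, was chosen here after its values were seen. It rose after knockdown (log2 3.44 ± 0.52, limma adjusted p = 6.86e-06) and was not called different from knockdown with wild type (log2 0.54 ± 0.49, adjusted p = 0.344), mut9 (log2 -0.41 ± 0.56, adjusted p = 0.584) or delta 22 (log2 -0.96 ± 0.52, adjusted p = 0.328). ITGB8, an integrin subunit that activates latent TGF-beta, was chosen in the same way. It fell with mut9 (log2 -2.97 ± 0.33) and with wild type (log2 -1.84 ± 0.28).

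TNC, the matrix gene tenascin C, and COL1A2, a collagen chain gene, also chosen after their values were seen, rose after knockdown (log2 1.92 ± 0.24 and 2.89 ± 0.25) and fell with wild type (log2 -0.77 ± 0.23 and -1.84 ± 0.24). With mut9 neither passed (log2 0.15 ± 0.26, adjusted p = 0.673, and log2 -0.66 ± 0.28, adjusted p = 0.0555). The TNC call with wild type did not hold with quantile scaling (log2 -0.34, adjusted p = 0.168).

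LTBP4, a latent TGF-beta binding protein gene, did not rise after knockdown as LTBP1 and LTBP3 did. It differed by log2 -0.32 ± 0.15 (limma adjusted p = 0.0679). LTBP3, which the rule for named genes does not cover, rose by log2 1.80 ± 0.14. LTBP4 was called higher with mut9 than in knockdown (log2 0.69 ± 0.17, adjusted p = 0.00213) but not with wild type (log2 0.22 ± 0.15, adjusted p = 0.202). LTBP4 was called lower after knockdown with quantile scaling (log2 -0.47, adjusted p = 0.0065) and with trimmed mean scaling (log2 -0.35, adjusted p = 0.0452).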
